A study of Mus musculus with 2 samples.

Results

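The stretch of mouse chromosome 15 that holds Trib1 and Myc was examined for DNase-hypersensitive sites in RAW264 cells, a macrophage-like mouse line that turns into bone-resorbing osteoclasts when given the cytokine RANKL. The stretch ran from 59.30 to 62.20 Mb on mm9, and every peak of either deposited list that overlapped it was taken, which gave 17 peaks from the RANKL library and 23 from the library without RANKL. These 40 peaks stood among 16447 and 13492 peaks in the whole lists. The RANKL cells had received GST-RANKL at 234 ng/ml for 24 hours, and the other cells had received none. Both were RAW264 cells in the same growth medium, and each condition was 1 library, so the values carry no error between replicates and the conditions could not be tested against each other. The stretch was chosen by the peak positions and scores of these same lists, with earlier results known, so its counts are a description of these 2 libraries.

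Trib1 encodes a pseudokinase that brings the ubiquitin ligase COP1 to the myeloid transcription factor C/EBP alpha and so marks it for degradation. In mice it is needed for some tissue macrophages. Myc encodes a transcription factor that drives growth and cell-cycle genes, and it has been reported to be induced by RANKL in osteoclast precursors. Both genes lie beside long gene-poor stretches, and Myc in particular is known to be controlled by enhancers far from its promoter, with the long non-coding RNA gene Pvt1 as its neighbour. A DNase-hypersensitive site marks DNA where nucleosomes have been displaced, as at active promoters and enhancers.

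The gene positions used here are approximate, 59.48 Mb for Trib1 and 61.82 Mb for Myc, given to the nearest 10 kb, so every distance from a gene carries that uncertainty. In the RefSeq gene table of another build, used for gene order only, 24 annotated genes lie between Trib1 and Myc. Of these, 3 are protein-coding (4933412E24Rik, Lratd2 and A1bg), 8 are long non-coding RNA genes and 10 are pseudogenes. The nearest protein-coding gene before Trib1 is Nsmce2, and the gene after Myc is Pvt1. Sites are given by position and are not assigned to these genes, since the table and the peaks are on different builds.

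The peaks lay in 3 groups separated by long empty stretches. The first group surrounded Trib1 and ran over 431.5 kb, from 59351416 to 59782921. It held 5 RANKL peaks and 13 peaks without RANKL. The second was a pair of sites far from both genes, within 45.1 kb between 60610614 and 60655698, with 3 RANKL peaks and 2 without RANKL. The third lay past Myc on its Pvt1 side, over 286.7 kb from 61874701 to 62161448, with 9 RANKL peaks and 8 without RANKL. Neither list had a peak in the 827.7 kb between the first and second groups, nor in the 1219 kb between the second group and the third, which includes the stated position of Myc. Of 19039 empty gaps between called peaks on chromosomes 1 to 19 and X, 2.97% were at least as long as the first and 1.83% at least as long as the second, while the median gap was 34.4 kb. These 2 gaps were taken as the longest of the stretch. The shares are by number of gaps, with 564 and 347 longer ones, and do not give the part of the genome that lies in such gaps.

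**Figure D1:**
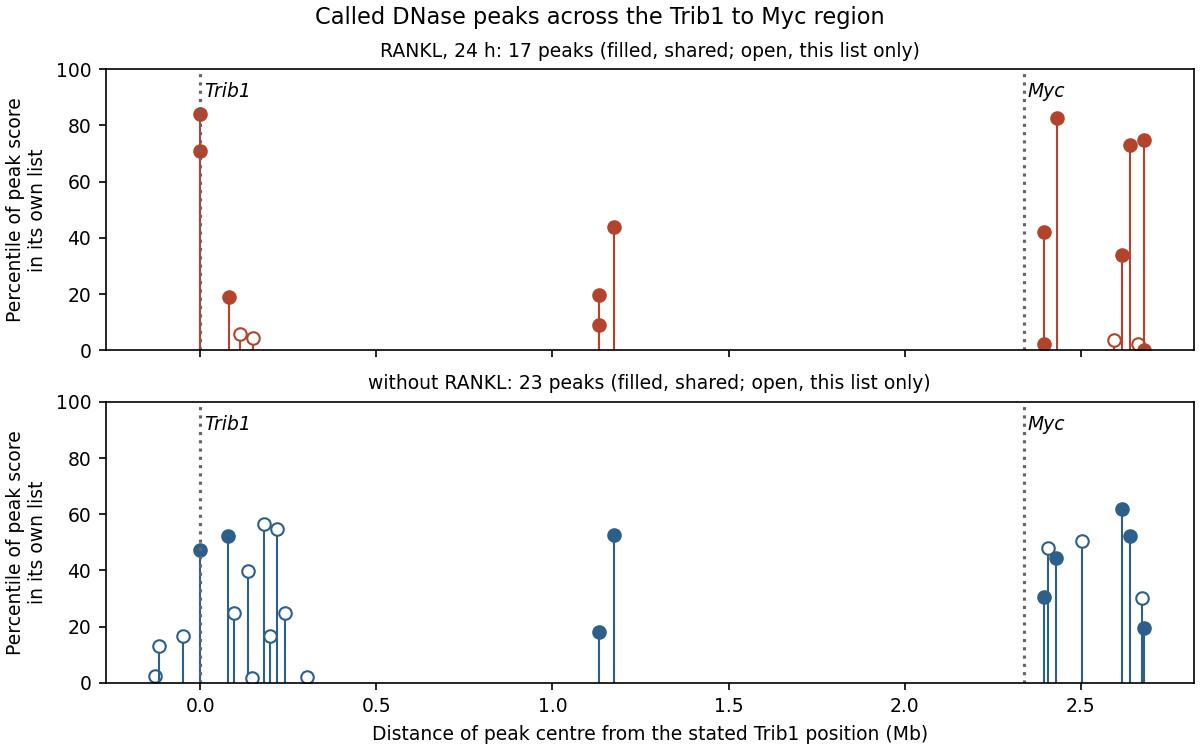
Peaks of the RANKL list (upper panel, 17) and of the list without RANKL (lower panel, 23) by distance of the peak centre from the stated Trib1 position in Mb (x) and by percentile of the score in the peak's own list (y). Filled circles are peaks that overlap a peak of the other list and open circles are peaks of that list only; dotted lines mark the stated Trib1 and Myc positions. Open circles of the list without RANKL gather beside Trib1, and no circle of either list falls in the long stretch before Myc.

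At Trib1 itself both libraries had called sites. The RANKL list had 2 narrow peaks there, from 59479332 to 59479676 (345 bp, score 108) and from 59479771 to 59480253 (483 bp, score 161). The list without RANKL had a single broad peak over both, from 59477577 to 59483085, with a score of 96.8. That broad peak was 5509 bp wide, wider than 99.6% of its list. The second RANKL peak held the highest RANKL score of the whole stretch. Scores depend on depth and calling settings and cannot be compared between lists, so the place of a peak within its own list, the percentage of that list with a lower score, is used below. The Trib1 peaks stood at the 70.9th and 84.1st percentiles of the RANKL list and at the 47.1st percentile of the list without RANKL. Ranks in 2 lists of different length cannot show whether accessibility changed. The next peak around Trib1 was 80.2 kb past the stated position in the RANKL list. Without RANKL the nearest other peaks were a weak one 48.9 kb before it, at 59429851 to 59431113 (score 62.6, 16.7th percentile), and one 79.0 kb past it.

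At Myc, in contrast, neither list had a peak within 50 kb of the stated position. The first called site past the gene began 55.4 kb away in the RANKL list and 54.7 kb away in the list without RANKL. On the other side, the nearest site was 1165 kb away with RANKL and 1164 kb away without RANKL. Read depth is unknown and peaks below the lowest deposited score are not listed, so the absence of a peak does not show that the Myc promoter was closed. Of the peaks within 50 kb of Trib1, 2 came from the RANKL list and 2 from the list without RANKL.

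Of the 3 groups of sites, that around Trib1 differed most in number between the lists. Of its 13 peaks without RANKL, 11 had no RANKL peak on them, a share of 84.6% (95% Wilson interval 57.8 to 95.7%). In the whole list without RANKL the same class made up 39.3%. Of the 5 RANKL peaks around Trib1, 2 were RANKL-only (40.0%, interval 11.8 to 76.9%), against 34.3% of the whole RANKL list. These intervals cover counting error only and treat neighbouring peaks as independent. Peaks low in a list are more often found in that list only: over the whole list without RANKL their median percentile was 28.0, against 66.5 for shared peaks. The Trib1 peaks without RANKL had a median percentile of 24.9. With the whole list cut into 10 equal bands by score, peaks of the same bands averaged 59.3% found in one list only, a value inside the interval of the Trib1 group.

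The sites called only without RANKL around Trib1 were mostly past the gene. Before it lay 3 weak ones, at 59351416 to 59352838 (score 51.4), at 59362239 to 59363505 (score 59.7) and at 59429851. Past it, after the shared site at 59559029, came 59575315 to 59576823 (score 70.0), 59615279 to 59616694 (score 86.6) and 59626993 to 59628265 (score 51.2). The run of sites that followed was the longest with no RANKL peak. It comprised 4 peaks within 60.8 kb, between 179.3 and 240.1 kb past the stated Trib1 position. The first of them, from 59659302 to 59661325, had a score of 112 and stood at the 56.5th percentile, the highest of all peaks of the stretch found in one list only. The next were 59676340 to 59677446 (score 62.7, 16.7th percentile), 59695689 to 59697414 (score 109, 54.6th percentile) and 59718877 to 59720137 (score 69.9, 24.9th percentile). The nearest RANKL peak to these 4 was 28.4 kb away from the first and 87.9 kb from the last. A last weak site without RANKL lay at 59781771 to 59782921 (score 51.4), 150.8 kb from any RANKL peak.

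RANKL-only sites around Trib1 were weak. They lay at 59591529 to 59591676 (148 bp, score 51.4) and at 59630784 to 59630933 (150 bp, score 51.0), in the lowest 10% of their list at percentiles 5.76 and 4.23. The first was 14.7 kb from the nearest peak without RANKL. The second was 2.52 kb from a broad peak without RANKL at 59626993, itself at the 1.79th percentile. Besides the Trib1 site, the one site around the gene called in both lists lay 80 kb past it. There the RANKL peak from 59560172 to 59560365 had a score of 54.9 and ranked 13315th of the 16447 in its list, and the broad peak from 59559029 to 59561075 had a score of 105 and ranked 6427th of the 13492 in its own.

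**Figure D2:**
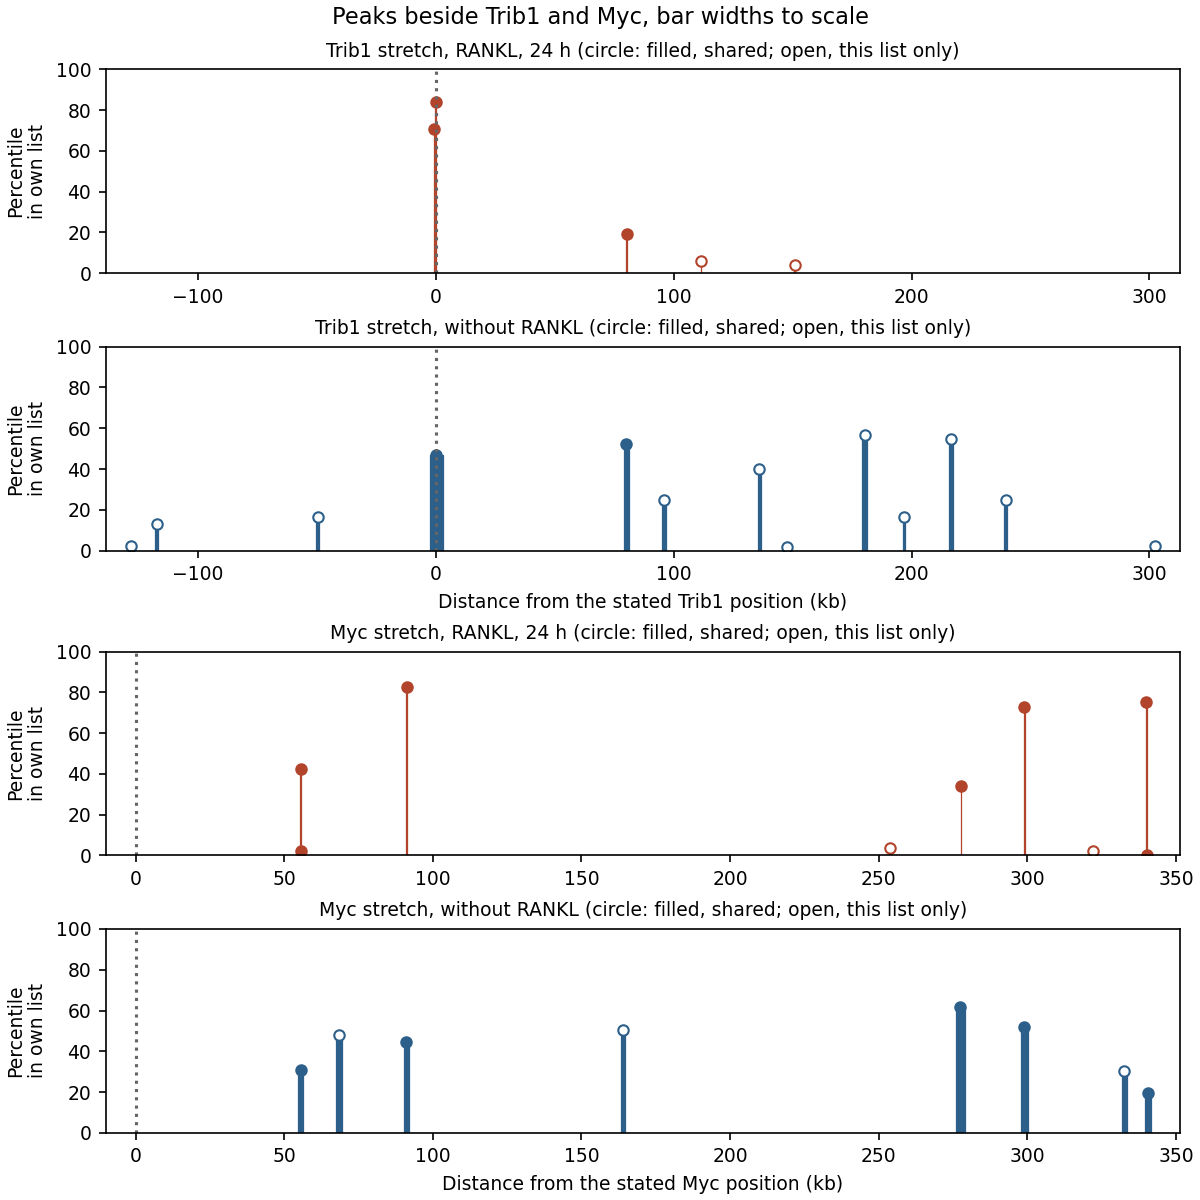
Peaks around Trib1 (upper pair of panels) and past Myc (lower pair), with RANKL above without RANKL in each pair, by distance in kb from the stated gene position (x) and percentile of the score in the own list (y). Bar widths are peak widths with a thin outline; filled circles are shared peaks and open circles peaks of that list only. The RANKL panel around Trib1 is empty beyond 151 kb, where 5 sites without RANKL were called, while past Myc 5 sites stand in both panels.

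Between the genes, the 2 isolated sites were called in both libraries. At 60610614 to 60612096 the RANKL list had 2 small peaks, from 60610888 to 60611028 (score 52.2) and from 60611264 to 60611395 (score 55.2), and the peak without RANKL had a score of 63.8. At 60654019 to 60655698 the RANKL peak from 60654660 to 60654946 had a score of 68.3 (44.0th percentile), and the peak without RANKL had a score of 106 (52.6th percentile). All 5 peaks of this pair of sites were shared. Their peak centres lay 1131 to 1175 kb past the stated Trib1 position.

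Past Myc the lists resembled each other more closely in number. Of the 9 RANKL peaks there, 2 were RANKL-only (22.2%, interval 6.32 to 54.7%), and of the 8 peaks without RANKL, 3 were found in that list only (37.5%, interval 13.7 to 69.4%). Both intervals include the whole-list shares of 34.3% and 39.3%. The interval of the Trib1 group without RANKL, from 57.8%, also overlaps that of the Myc group without RANKL. Such overlap does not decide whether the shares of the groups differ, and their difference was not tested.

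The sites past Myc formed 2 runs, with peaks at most 25 kb apart, and a lone site between them. The nearer run spanned 37.2 kb, from 54.7 to 91.9 kb past the stated Myc position. Its first site had 2 RANKL peaks that were almost joined, 61875439 to 61875716 (score 66.9) and 61875718 to 61875880 (score 50.5), inside a peak without RANKL from 61874701 to 61876362 (score 76.2). A site from 61887504 to 61889416 was called only without RANKL (score 98.3, 48.1st percentile), 11.6 kb from the nearest RANKL peak. The last site of this run had the second highest RANKL score of the stretch. Its RANKL peak from 61911088 to 61911436 had a score of 154 and stood at the 82.8th percentile, and its peak without RANKL from 61910278 to 61911898 ranked at the 44.5th percentile. The lone site from 61983162 to 61984795 was called only without RANKL (score 102, 50.6th percentile), 71.7 kb from any RANKL peak.

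The farther run was the fullest of the stretch, with 6 RANKL peaks and 4 peaks without RANKL within 87.8 kb, from 253.6 to 341.4 kb past the stated Myc position. It began with a RANKL-only peak of 119 bp from 62073608 to 62073726 (score 50.9, percentile 3.64). The next site carried the highest score without RANKL in the whole stretch, 122 at the 61.9th percentile, in a peak 3079 bp wide from 62095959 to 62099037. Its RANKL peak from 62097539 to 62097784 had a score of 61.3 and stood at the 33.8th percentile. At the site that followed, the RANKL peak from 62118915 to 62119159 had a score of 114 (73.0th percentile), and the peak without RANKL from 62117775 to 62120312 had a score of 105 (52.1st percentile). A second RANKL-only peak of 119 bp, from 62142208 to 62142326 (score 50.5), lay 9.45 kb from the other list, and a peak from 62151780 to 62153533 was called only without RANKL (score 75.6, 30.3rd percentile). The run ended with RANKL peaks from 62159812 to 62160220 (score 120, rank 4108 in its list) and from 62160288 to 62160475 (score 50.0) inside a peak without RANKL from 62159502 to 62161448 (score 65.2, rank 10839 in its list).

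Taking the stretch as a whole, 9 sites were shared. Their RANKL peaks had a median percentile of 42.2, against 3.94 for the 4 RANKL-only peaks. Over the whole RANKL list the medians were 63.3 for shared peaks and 27.3 for RANKL-only peaks. Of the 13 shared RANKL peaks of the stretch, 8 stood in the lower 50% of their list and 3 in its lowest 10%. The 5 RANKL peaks that stood in the upper 50% of their list by score were all shared (0 of 5 RANKL-only, interval up to 43.4%), against 14.6% RANKL-only in the upper 50% of the whole list. Of the 7 peaks without RANKL in the upper 50% of theirs, 3 were found in that list only (42.9%, interval 15.8 to 75.0%), against 16.9% in the upper 50% of the whole list, a value inside the interval. With both lists reduced to their upper 50%, 1 of these sites, that at 62117775 to 62120312, remained in both. Then 4 of 5 RANKL peaks (80.0%, interval 37.6 to 96.4%) and 6 of 7 peaks without RANKL (85.7%, interval 48.7 to 97.4%) had no counterpart. Over the whole lists, reduced in the same way, the shares were 32.6% for RANKL peaks and 31.3% for peaks without RANKL, below both intervals. The 7 peaks without RANKL stood just above that limit, between the 50.6th and 61.9th percentiles of their list, and shares for peaks of like score were not computed with the lists so reduced.

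Over the 9 shared sites, the strongest RANKL peak stood at a higher percentile in its list than the broad peak did in its own at 6 sites, among them Trib1 and 4 of the 5 sites past Myc. Across all 8186 shared sites of the lists this was so at 54.8%. All 4 sites with 2 RANKL peaks were among the 6, and taking the stronger of 2 peaks favours a higher percentile. Sites with at least 2 RANKL peaks made up 44.4% of the sites here and 27.5% of all, so the 2 sets are not alike in this. The order of the 9 sites in one list was not that in the other, with a Spearman rho of -0.17 over these sites, against 0.58 over all 8186. These are correlations across sites of 1 pair of libraries, and 9 sites of a narrow score range give a loose value.

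**Figure D3:**
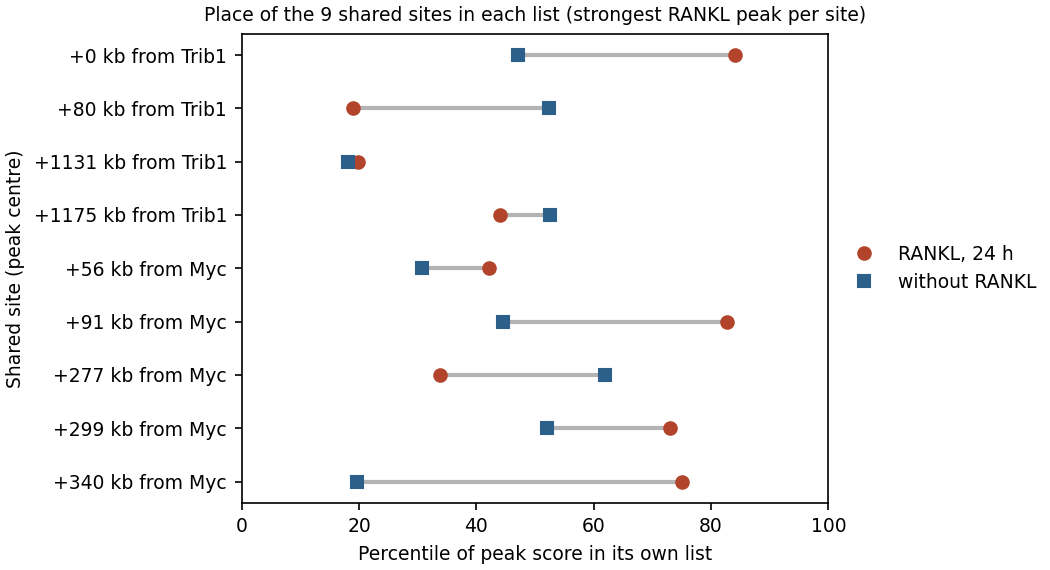
The 9 sites called in both lists, ordered along the chromosome and named by distance from the stated position of Trib1 or Myc. Circles give the percentile of the strongest RANKL peak in the RANKL list and squares that of the peak without RANKL in its own list. The Trib1 site and the sites 91 and 340 kb past Myc have the circle far to the right of the square, and the sites 80 kb past Trib1 and 277 kb past Myc have it to the left.

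The RANKL peaks lay wholly inside the broad peaks at all 9 shared sites and were much narrower. The peaks without RANKL were 4.64 to 12.5 times as wide as the strongest RANKL peak on them, with a median of 10.4, against a median of 5.87 over all shared sites. A pair of RANKL peaks occurred in 4 of the 9 broad peaks (44.4%), among them that at Trib1, and 27.5% of all shared broad peaks held at least 2. Summed over the stretch, called peaks covered 3996 bp in the RANKL list and 42287 bp in the list without RANKL. Widths differed between the lists everywhere, with medians of 233 bp in the RANKL list and 1738 bp in the list without RANKL, so the contrast in width is not particular to these genes. Whether calling settings contribute to it was not tested.

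The stretch held no strong site of either list. None of its 17 RANKL peaks and none of its 23 peaks without RANKL reached the highest 10% by score. The highest stood at the 84.1st percentile of the RANKL list and the 61.9th percentile of the list without RANKL. The median percentile was 19.8 for the RANKL peaks (quartiles 4.23 and 70.9) and 30.7 for the peaks without RANKL (quartiles 17.4 and 51.4). By score, 12 RANKL peaks and 16 peaks without RANKL lay in the lower 50% of their list, and 7 RANKL peaks and 3 peaks without RANKL lay in its lowest 10%. All 4 RANKL-only peaks were in that lowest 10%, with scores of 50.5 to 51.4.

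Counted over the whole stretch, 4 of 17 RANKL peaks were RANKL-only (23.5%, interval 9.56 to 47.3%), and 14 of 23 peaks without RANKL were found in that list only (60.9%, interval 40.8 to 77.8%). The whole lists gave 34.3% and 39.3%, and the rest of chromosome 15 gave 30.2% and 41.5%. The share without RANKL lay above the whole-list value, whose 39.3% falls just outside the interval. That depends on the chosen edges. With the stretch widened by 200 kb on each side, the share was 14 of 26 (53.8%, interval 35.5 to 71.2%), and 39.3% falls inside that interval. Peaks of the same score bands averaged 44.9% in the RANKL list and 54.1% in the list without RANKL, and both values fall inside the intervals of the stretch. At this number of peaks, an excess of sites found only without RANKL beyond what their low scores go with was therefore not detectable.

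**Figure D4:**
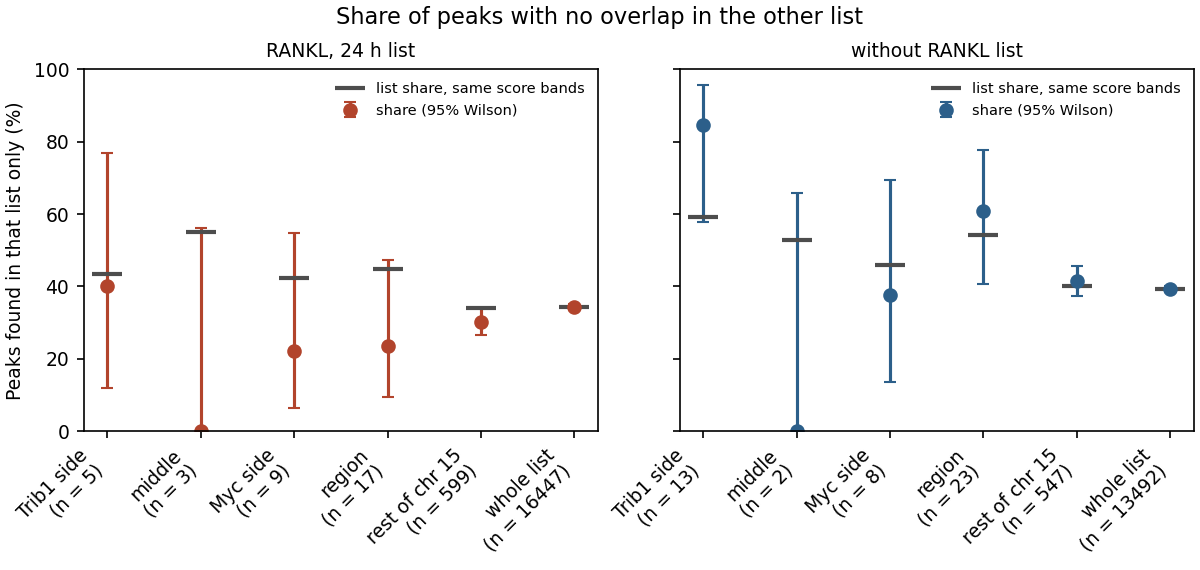
Share of peaks found in one list only, in percent (y), for the RANKL list (left) and the list without RANKL (right), over the Trib1 side, the middle, the Myc side, the whole stretch (labelled region), the rest of chromosome 15 and the whole list. Points are shares with 95% Wilson intervals and dashes are the mean share over the whole list for the same score bands. The Trib1 side without RANKL has the highest point of that panel, 84.6%, with its dash at 59.3% inside the interval.

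There were fewer RANKL peaks than peaks without RANKL in the stretch, a ratio of 0.739 (exact conditional Poisson interval 0.371 to 1.45). On chromosomes 1 to 19 and X together the ratio was 1.21, and on the rest of chromosome 15 it was 1.10. Both values lie inside the interval of the stretch. Around Trib1 the ratio was 0.385 (interval 0.107 to 1.15), and past Myc it was 1.12 (interval 0.385 to 3.35). The density was 5.86 RANKL peaks per Mb (exact Poisson interval 3.41 to 9.39) and 7.93 peaks per Mb without RANKL (interval 5.03 to 11.9). When RANKL peaks closer than 1 kb were merged, 13 RANKL regions stood against 23 without RANKL, a ratio of 0.565. The RANKL list was also reduced, by highest score, to as many peaks as the other. Then 10 RANKL peaks stood against 23 without RANKL, a ratio of 0.435. Lists so reduced are of equal length, so 1.21 and 1.10 are not the values to set beside 0.435. Over the whole lists so reduced, the numbers of RANKL peaks and peaks without RANKL are equal by construction, and 0.435 lies below equality. Ratios outside the stretch were not computed with peaks merged. No interval was computed for 0.565 or 0.435, and whether either is a larger shortfall of RANKL peaks than 0.739 was not tested.

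The counts were also set beside 894 other windows of the same 2.9 Mb length on chromosomes 1 to 19 and X. Of these windows, 78 held no peak of either list, which lowers the medians and raises the place of the stretch by count. The median window held 13 RANKL peaks (quartiles 5 and 25) and 10 peaks without RANKL (quartiles 3 and 21). By number of RANKL peaks, 57.3% of windows held fewer than the Trib1 and Myc stretch, and by number of peaks without RANKL, 77.3% did. Among 468 windows with at least 10 peaks without RANKL, the median ratio of RANKL peaks to peaks without RANKL was 1.12 and 16 windows (3.42%) had a lower ratio than the stretch. In the same windows, a higher share of peaks found only without RANKL was seen in 28 (5.98%). These places are descriptions of the 2 libraries, and the stretch was not chosen blind to its counts.

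**Figure D5:**
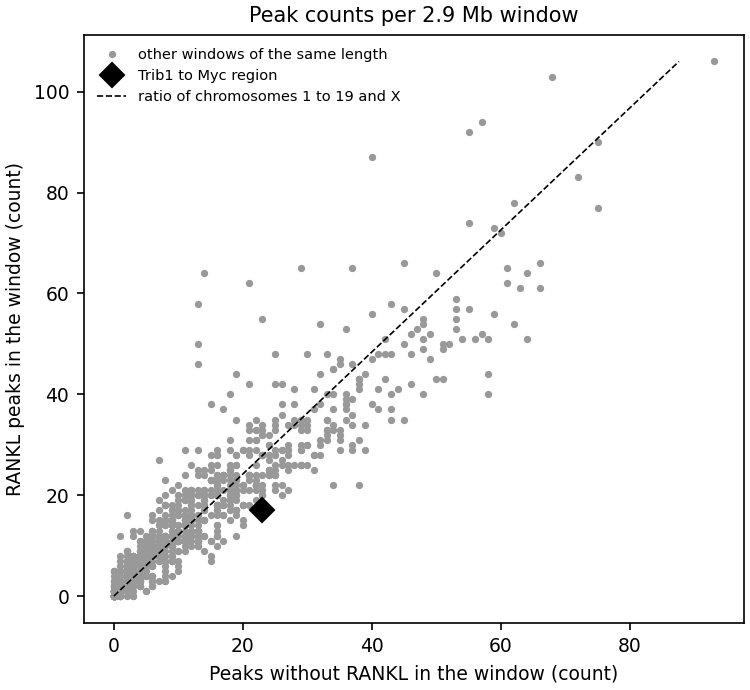
Number of RANKL peaks (y) against number of peaks without RANKL (x) in windows of 2.9 Mb on chromosomes 1 to 19 and X. Grey points are the other windows, the black diamond is the Trib1 and Myc stretch and the dashed line shows the overall ratio. The diamond, at 17 RANKL peaks and 23 peaks without RANKL, lies below the line, near the lower edge of the grey points.

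The edges of the stretch did not fall inside a run of sites. Just outside its start, the RANKL list had a RANKL-only peak from 59280042 to 59280281 (score 112) and the list without RANKL had a shared peak from 59204954 to 59206699 (score 170). Just past its end, both lists had a shared site, with a RANKL peak from 62224172 to 62224497 (score 103) and a peak without RANKL from 62223247 to 62225046 (score 101). The outermost sites inside were the weak RANKL peak of score 50.0 at 62160288 and the first weak peak of score 51.4 without RANKL, described above.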

How the data were processed

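DNase-seq was done on 1 RANKL library and 1 library without RANKL. Per the labels' protocols, DNase I fragments between 100 and 500 bp were purified for sequencing. Each library has its own peak list, and the deposited lists give a position and a score for each peak. The tools named per the submitters' processing notes are Bowtie2 2.0.0 and MACS2, and the build is mm9. The sources used here do not give the score's definition, the threshold or any control, and read depth is unknown. Intervals therefore cover the counting of peaks only.

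Positions are given 1-based on mm9. All 40 peaks were kept with no filter. Peaks overlapping by at least 1 bp were called shared. Scores were ranked within each list. Score bands were 10 equal parts of each list, and the share of like score was the mean, over the peaks counted, of the whole-list share in the band of each. Runs join peaks of both lists at most 25 kb apart. The 3 groups were cut at the 2 longest empty stretches after the data were seen, and end at the edges of the stretch. Sites were named by rule: peaks within 50 kb of a stated gene position, the 5 highest-scoring of each list, the 3 highest-scoring of each list found there only, and the ends and strongest peak of runs of at least 4 peaks. Others were named after their values were seen, to account for every peak. The region, its genes and these rules were chosen with earlier results of these data known. Python 3.11.15, numpy 2.4.6, pandas 2.3.3, scipy 1.17.1 and matplotlib 3.10.9 were used, and the overlap and run code was tested on simulated data. Promoter sequences of Trib1 and Myc were not used here, so the planned motif search was not made.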

Additional observations from a re-analysis of the deposited data

How the results depend on the processing

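Under the alternatives, 27 of 41 values were near the reported one, meaning a count within 1.5 times, a share or ratio inside its interval, or a percentile between its quartiles. Some of these could not move. Equal list lengths leave the number of peaks without RANKL as it was. RANKL peaks wholly inside broad peaks stay shared when the overlap must fill 50% of the narrower peak. The upper 50% of each list left 5 RANKL peaks and 7 without RANKL, with 80.0% and 85.7% of them in one list only, against 32.6% and 31.3% of the whole lists under the same setting. Equal list lengths left 10 RANKL peaks (ratio 0.435 in place of 0.739), and the ratio of the whole lists falls under this setting too. Of these 10, 0% were RANKL-only (interval up to 27.8%), since equal lengths leave out the RANKL peaks of lowest score. Narrowing the stretch by 200 kb on each side, which leaves out the Trib1 site, left 9 RANKL peaks and 15 without RANKL. Widening it by as much gave 21 RANKL peaks and 26 without RANKL. Of the latter, 53.8% were found in that list only (interval 35.5 to 71.2%). Requiring the overlap to fill 50% of both peaks made 100% of the peaks of each list unshared, which follows from their widths. Joining peaks within 10 kb in place of 25 kb gave 23 runs in place of 11 and 1 run of at least 4 peaks in place of 4. With either list alone there was 1 run of at least 4 peaks. Each condition had 1 library, so no replicate could be left out, and unknown read depth limits every statement on sites missing from a list. No paired analysis was possible because each group holds 1 library.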

Other observations

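The stretches of the same length on either side of the Trib1 and Myc stretch were counted too. That before it, from 56.40 to 59.30 Mb, held 24 RANKL peaks and 19 peaks without RANKL, a ratio of 1.26 (interval 0.663 to 2.44). Of its RANKL peaks, 29.2% were RANKL-only (Wilson interval 14.9 to 49.2%), and of its peaks without RANKL, 21.1% were found in that list only (interval 8.51 to 43.3%). Its strongest RANKL peak lay from 57907784 to 57908496 at the 96.3rd percentile of its list, over a peak without RANKL from 57906936 to 57909081 at the 95.5th percentile.

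The stretch past it, from 62.20 to 65.10 Mb, held 10 RANKL peaks and 9 peaks without RANKL, of which 7 and 6 had no counterpart in the other list. These shares were 70.0% (interval 39.7 to 89.2%) with RANKL and 66.7% (interval 35.4 to 87.9%) without RANKL, against 34.3% and 39.3% of the whole lists. The peaks there ranked low, with median percentiles of 32.3 in the RANKL list and 31.4 in the list without RANKL. Shares for peaks of like score were not computed for this stretch. The strongest RANKL peak there, from 62400487 to 62401096, was RANKL-only and stood at the 79.5th percentile (score 138). No RANKL-only peak of the Trib1 and Myc stretch stood above the 5.76th percentile. The strongest peak without RANKL, from 63890365 to 63891905, was shared and stood at the 72.5th percentile of its list (score 147).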
